A study of Mus musculus with 18 samples.

Results

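The values described here are the mRNA changes of primary mouse astrocytes that carry the R132H mutation of Eif2b5 on both alleles, measured after 48 hr of inflammatory cytokines. They rest on 6 of the 18 libraries of the series: 3 RNA-seq libraries of mutant cells exposed to TNFα at 20 ng/ml and IL-1β at 0.25 ng/ml over the final 48 hr, against 3 of mutant cells left untreated. Both groups were cultured for 120 hr in all, from thawed stocks, in batches A to C, and both carry the same homozygous mutation (Eif2b5-R132H-R132H). The other 12 libraries are the mutant RNA-seq after 24 hr and the ribosome footprints (RPF) of all 3 conditions. The genes were not chosen by their values: every gene with a deposited 48 hr mutant mRNA fold is included, 12204 of the 12205 in the table.

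The table gives a single pooled value per gene, the log2 ratio of cytokine-treated to untreated cells, with no value per library. No replicate error, test or depth is therefore available, and a log2 fold of 1 in either direction, a 2-fold change, serves as a descriptive threshold throughout: a gene is called high at 1 or more and low at -1 or less. WT folds in the same table are the authors' comparison from libraries that belong to no group of this series. The library kit named in the labels is one for total RNA, while the labels call the molecule polyA RNA, and which applies cannot be settled from them.

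The protein made from Eif2b5 is the catalytic part of eIF2B, which reloads the translation initiation factor eIF2 with GTP, and partial loss-of-function mutations of eIF2B cause vanishing white matter disease, in which astrocytes are abnormal. TNFα and IL-1β signal through separate receptors that converge on the NF-kB and AP-1 transcription factors. In astrocytes they switch on chemokines, acute-phase proteins and antigen presentation, and through IRF and STAT factors a second wave of interferon-type genes. IRF and STAT complexes bind the interferon-stimulated response element (ISRE), cell-cycle genes are controlled through CCAAT boxes and the cell-cycle genes homology region (CHR), and contractile genes are driven through the CArG box by serum response factor.

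Promoter stretches from 5 lists are shown first because a short element was more frequent in each list than over all promoters. The letters come from RefSeq promoters on GRCm38.p6, the assembly that mm10 names. For each group the members with the largest absolute 48 hr fold whose promoter held the element outside all GENCODE exons were taken, and capitals mark the bases of the match on either strand. The first 3 hold the NF-kB consensus and belong to the chemokines Ccl20 (chr1:83116646-83116765, plus strand) and Cxcl2 (chr5:90903751-90903870, plus strand), both outside all GENCODE transcripts, and to the feedback inhibitor Tnip3 (chr6:65590278-65590397, plus strand, in an intron of a longer GENCODE transcript).
Ccl20: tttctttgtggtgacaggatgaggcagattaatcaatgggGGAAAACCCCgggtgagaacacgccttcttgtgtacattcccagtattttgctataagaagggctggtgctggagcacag
Cxcl2: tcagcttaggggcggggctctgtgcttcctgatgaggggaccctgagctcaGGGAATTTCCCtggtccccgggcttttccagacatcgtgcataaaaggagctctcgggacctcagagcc
Tnip3: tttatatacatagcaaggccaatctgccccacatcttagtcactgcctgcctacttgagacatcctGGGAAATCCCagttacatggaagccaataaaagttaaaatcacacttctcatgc

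The next pair holds the ISRE core, GAAA followed after 2 bases by GAAA, in the interferon-inducible GTPase genes Gbp5 (chr3:142496759-142496878, plus strand) and Tgtp2 (chr11:49064213-49064332, minus strand), both in introns of longer GENCODE transcripts. The Gbp5 match lies on the opposite strand to the one printed.
Gbp5: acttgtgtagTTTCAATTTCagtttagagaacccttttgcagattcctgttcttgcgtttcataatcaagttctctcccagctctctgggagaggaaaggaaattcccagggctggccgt
Tgtp2: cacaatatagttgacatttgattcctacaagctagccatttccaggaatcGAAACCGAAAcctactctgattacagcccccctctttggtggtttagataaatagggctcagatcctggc

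The last 3 come from genes that were lower. The mitotic kinesin genes Kif11 (chr19:37376262-37376381, plus strand, outside all GENCODE transcripts) and Kif14 (chr1:136467610-136467729, plus strand, in an intron) hold the CHR element TTTGAA, in Kif11 on the opposite strand, and Myl9 (chr2:156775293-156775412, plus strand, outside all transcripts), a myosin light chain gene of contractile cells, holds the CArG consensus.
Kif11: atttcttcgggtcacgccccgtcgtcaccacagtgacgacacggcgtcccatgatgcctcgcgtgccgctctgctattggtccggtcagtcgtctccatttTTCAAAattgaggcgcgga
Kif14: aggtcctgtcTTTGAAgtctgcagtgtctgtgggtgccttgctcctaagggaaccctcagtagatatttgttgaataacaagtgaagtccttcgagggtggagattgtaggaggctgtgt
Myl9: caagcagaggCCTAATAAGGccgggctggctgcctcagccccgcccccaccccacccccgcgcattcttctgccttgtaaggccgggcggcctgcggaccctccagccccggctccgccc

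After 48 hr of cytokines most mutant mRNAs stayed within 2-fold of untreated cells, and the largest folds were on the high side. Of 12204 genes, 1093 were high (8.96%) and 1006 low (8.24%), while 10105 (82.8%) lay between. The median fold was 0.04, with quartiles at -0.32 and 0.38. High folds reached much further than low ones, with 112 genes reaching 5 and 12 reaching -5. Of the 2-fold changed genes, 47 high and 37 low ones had predicted names, which are counted here and not named.

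**Figure D1:**
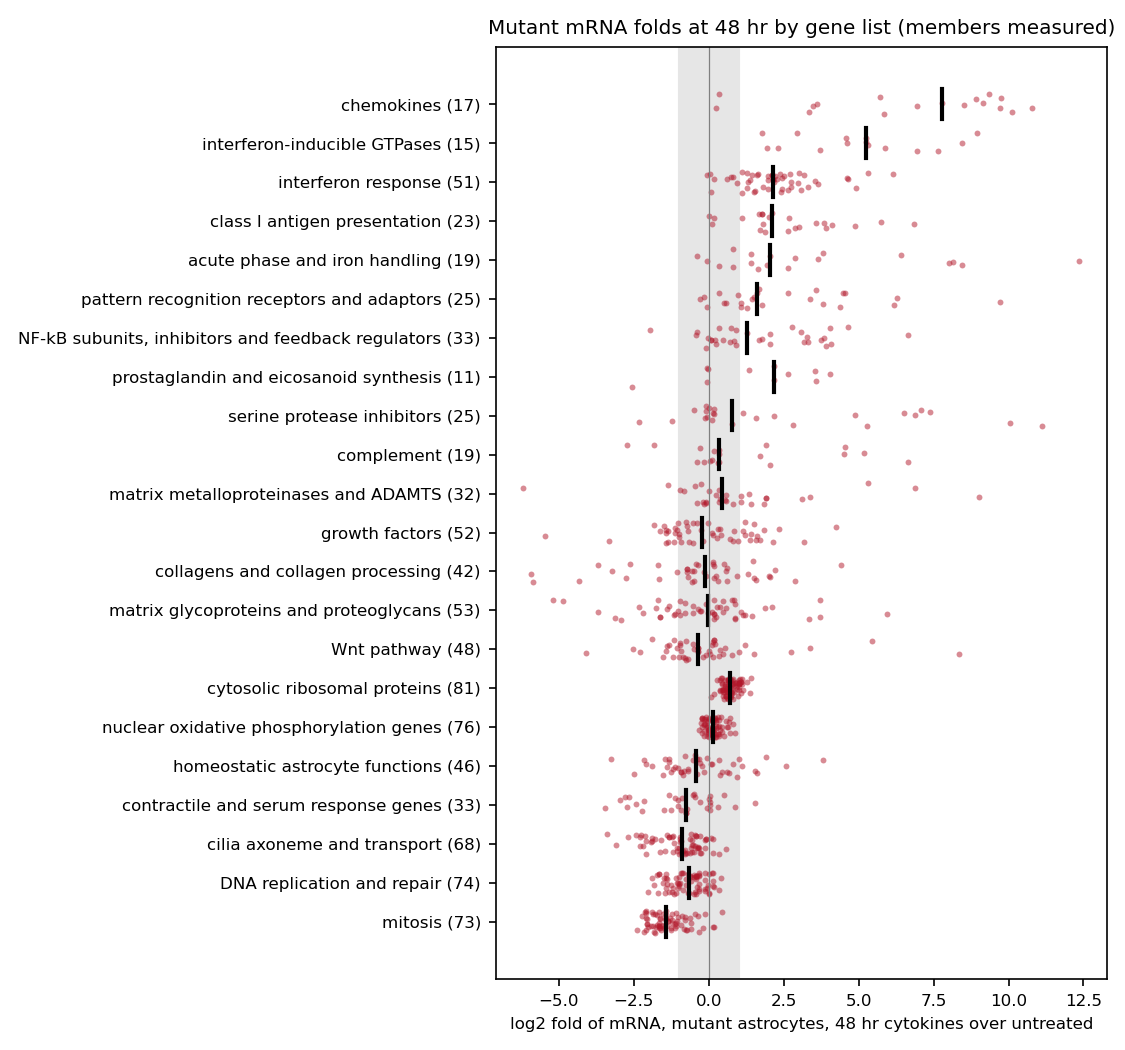
Each point is a gene, placed by the log2 fold of mRNA in mutant astrocytes after 48 hr of cytokines over untreated cells, with the number of measured members after each list's name. Black bars are list medians and the grey band spans -1 to 1. Chemokines (median 7.79) and interferon-inducible GTPases (5.23) sit far right of the band, mitosis genes (-1.44) left of it, and collagens, growth factors and matrix genes spread to both sides.

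Secreted attractants of leukocytes were the highest group. Of 17 measured chemokines, 15 were high and none low, beside 8.96% of all genes high, and the median was 7.79. The authors' deposited table put Cxcl5, which recruits neutrophils, at 10.80, Cxcl9, which draws T cells through CXCR3, at 10.11, and Ccl5 at 9.74. Ccl20, whose promoter is printed above, stood at 9.70 in the authors' deposited table, Cxcl2 at 9.34 and the monocyte attractant Ccl7 at 9.14. The 2 members inside the band reach no further than 0.34, so the list split into very high genes and genes near 0. Among 4 measured chemokine receptors the directions differed, and the authors' deposited table gave the decoy-like receptor Ccrl2 2.78, the scavenging receptor Ackr3 -1.13 and the CXCL12 receptor Cxcr4 -4.54.

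Cytokine genes and their receptors were mixed, with a few very high members. Of 12 interleukins and colony stimulating factors 6 were high and none low (median 1.20). The granulocyte factor Csf3 was at 10.84 in the authors' deposited table, the IL-10 family member Il19 at 8.47, Il6 at 5.53 and Lif at 2.88. Receptors had 11 of 21 members high, led in the authors' deposited table by the IL-13 receptor chains Il13ra2 at 5.86 and Il13ra1 at 4.08. In the TNF ligand and receptor family 11 of 19 were high (median 1.13). The authors' deposited table gave the costimulatory receptor Cd40 7.51, the osteoclast factor Tnfsf11 6.83 and Tnfrsf9 6.64. No fold was analysed here for Tnf and Il1b, the genes of the added cytokines themselves.

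Feedback regulators of NF-kB signalling were among the high genes. Of 33 measured NF-kB subunits and feedback regulators 17 were high and 1 low (median 1.28). The authors' deposited table had the ubiquitin-binding inhibitors Tnip3 and Tnfaip3 at 6.66 and 4.63, and the nuclear and cytoplasmic IkB proteins Nfkbiz, Nfkbie, Bcl3 and Nfkbia at 4.07, 4.05, 3.92 and 3.07. The single low member was the adaptor Traf1, at -1.96 in the authors' deposited table, against -3.32 in the WT.

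Most sensors of microbial products were high, and so were several genes of inflammatory cell death. Of 25 pattern recognition receptors and adaptors 18 were high and none low (median 1.61). The inflammasome sensor Nlrp3 was the highest at 9.72 in the authors' deposited table, followed by the lipopeptide receptor Tlr2 at 6.29 and the nucleic acid sensor Zbp1 at 6.19. Among 32 genes of pyroptosis, necroptosis and apoptosis 10 were high and 1 low, with a median of 0.46. After Nlrp3, which both lists hold, the highest members were pyroptotic and necroptotic genes, with, in the authors' deposited table, the caspase Casp4 at 4.79, the pore former Gsdmd at 3.14 and the necroptosis effector Mlkl at 3.11. A second pore-forming gasdermin gene, Dfna5, was the low exception, at -2.14 in mRNA but 0.19 in footprints in the authors' deposited table.

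Interferon-type genes were high at 48 hr, with lower medians than at 24 hr. All 15 measured interferon-inducible GTPases, which attack vacuoles that hold pathogens, were at or above 1 (median 5.23, lowest 1.79). The authors' deposited table gave Gbp10 8.94, Gbp4 8.44, Gbp5 7.65, Gbp6 6.94 and Tgtp2 5.89. These genes lie in clusters of near-identical copies, so single members are uncertain. In the wider interferon response 43 of 51 genes were high and none low (median 2.14). Its highest members in the authors' deposited table were the Schlafen genes Slfn2 at 6.14 and Slfn5 at 4.91 and the oligoadenylate synthetase Oas1a at 5.31. At 24 hr the median was 5.74 for the GTPases and 2.92 for the wider interferon response. Of the GTPases 1 of 15, and of the interferon response 2 of 51, had a higher fold at 48 hr than at 24 hr. In the signalling layer above these genes 10 of 26 were high at 48 hr. The authors' deposited table gave the factors Irf5 3.22, Irf1 3.02 and Irf7 2.42.

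Genes for presenting peptides on MHC class I were higher as a set, apart from the general folding factors calreticulin, calnexin and Pdia3. Of 23 measured, 20 were high and none low (median 2.12). The authors' deposited table had the nonclassical heavy chains H2-Q6 and H2-Q7 at 6.84 and 5.74, the classical H2-K1 and H2-D1 at 4.12 and 3.93, and the immunoproteasome subunit Psmb8 at 3.85. In contrast to the immunoproteasome, 1 of 36 constitutive ubiquitin and proteasome genes was high (Psma6, at 1.22 in the authors' deposited table), and their median was 0.23. The heavy chains are close paralogs, so the split of reads among them is uncertain. Of 5 measured genes of class II presentation and T cell costimulation or checkpoint 2 were high and none low (median 0.74). The high ones were the invariant chain Cd74 at 7.40 and the checkpoint ligand Cd274 at 3.32 in the authors' deposited table, while the loading factors H2-DMa and H2-DMb1 were at 0.52 and 0.41. The class II chains H2-Aa, H2-Ab1 and H2-Eb1 were not analysed here.

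Acute-phase, iron and protease inhibitor genes held several of the largest folds. Of 19 acute-phase and iron genes 14 were high and none low (median 2.03). Saa3, a serum amyloid A gene, had the highest fold of all genes, 12.36 in the authors' deposited table, with haptoglobin Hp at 8.45, the siderophore-binding lipocalin Lcn2 at 8.15, Saa2 at 8.00, the metalloreductase Steap4 at 6.43 and ceruloplasmin Cp at 3.80. Among 25 protease inhibitors, mostly of serine proteases and including the metalloproteinase inhibitors of the Timp family, 12 were high and 2 low. The whey-acidic-protein gene Wfdc17 was at 11.10, and the members of the duplicated Serpina3 cluster Serpina3f and Serpina3c at 10.06 and 7.39, in the authors' deposited table. The low members were Timp3 at -2.34 and the secreted protein Pi15 at -1.21 in the authors' deposited table.

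Several enzymes that make small inflammatory mediators were among the highest genes, within lists that were mostly inside the band. Of 22 immunometabolic and redox genes 9 were high and none low (median 0.67), beside 8.96% high and 8.24% low over all genes. Of 16 genes of cholesterol export and oxysterols 3 were high and 2 low, too few to call a shift of the list. The authors' deposited table gave the inducible nitric oxide synthase Nos2 11.92, Acod1, which makes itaconate, 9.08, the NADPH oxidase subunit Cybb 7.23, and Ch25h, which makes 25-hydroxycholesterol, 12.32. Cyp7b1, which hydroxylates oxysterols further, was at 4.74 in the authors' deposited table. Of 31 genes of cholesterol synthesis and uptake none was high, and the median was 0.07. In the prostaglandin group 7 of 11 were high (median 2.17), with the inducible cyclooxygenase Ptgs2 at 4.03 and Ptges at 2.64 in the authors' deposited table. The prostaglandin D synthase Ptgds, an abundant product of glia and leptomeninges, was at -2.56 in the authors' deposited table, the only low gene of the 11.

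Complement was high in the C3 and classical protease arms and not in every gene. Of 19 measured, 7 were high and 2 low (median 0.33), beside 8.96% high and 8.24% low over all genes. C3 was at 6.63, factor B (Cfb) at 5.16, C1s1 at 4.53 and C1ra at 4.51 in the authors' deposited table. The membrane inhibitor Cd59a was at -1.83 and vitronectin (Vtn) at -2.74 in the authors' deposited table. For Cfb the authors' deposited table gave a footprint fold of 7.85 and a fold of 2.79 in ribosome density (RD), the authors' measure of footprints relative to mRNA.

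Genes that mark astrocytes or serve their supporting functions were low more often than high. Of 46 homeostatic function genes 6 were high and 14 low (median -0.43), and the high ones in the authors' deposited table included the cystine transporter Slc7a11 at 3.81, the synapse-promoting thrombospondin Thbs2 at 2.57 and the ATP receptor P2rx4 at 1.61. Of 19 measured astrocyte markers 1 was high and 6 low (median -0.68), and 19 of the 20 markers listed had a fold. The authors' deposited table gave the inward rectifier Kcnj10 -3.25, aldolase C (Aldoc) -2.50, the calcium-binding protein S100b -2.21, and the sodium pump subunit Atp1b2 -2.15. Slc1a2, the main glial glutamate transporter gene, was at 1.90 and the water channel Aqp4 at -0.16 in the authors' deposited table. Of 11 intermediate filament genes and partners, a class often raised in reactive astrocytes, 5 were low and none high, with Gfap at -1.60 and Vim at -1.23 in the authors' deposited table, although 21 of 36 reactive astrocyte genes were high and 6 low. In such bulk cultures, fewer cells of a type and less RNA per cell cannot be told apart.

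Genes of cell division were lower nearly throughout. Of 73 measured mitosis genes 55 were low and none high (median -1.44), beside 8.24% of all genes low. The lowest were the kinetochore gene Cenpf at -2.39, the kinase gene Pbk at -2.24, the spindle gene Aspm at -2.14 and the kinesins Kif14 and Kif11 at -2.13 and -2.10 in the authors' deposited table. The authors' deposited table gave the proliferation marker Mki67 -2.09. Genes of DNA replication and repair were lower to a smaller degree, with 26 of 74 low and none high (median -0.67). The E2F-family repressors E2f8 and E2f7 were at -2.03 and -1.73 in the authors' deposited table. In the authors' own DNA replication list 4 of 34 genes were low and none high (median -0.41), with 9 folds above 0. Of 30 cell cycle inhibitors and p53 targets 7 were high, the highest in the authors' deposited table being Gadd45a at 2.05. The classic arrest gene Cdkn1a was inside the band at 0.66, and the imprinted inhibitor Cdkn1c was at -3.46, in the authors' deposited table.

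Cilia and contractile genes were lower as well. Of 68 genes of the cilia axoneme and its transport 27 were low and none high (median -0.88). Members of the motile axoneme led, with Zbbx at -3.40, the dynein heavy chain Dnah6 at -3.09 and the radial spoke gene Rsph4a at -2.69 in the authors' deposited table. Of 8 ependymal and choroid plexus markers, the cells with motile cilia that such cultures can hold, 5 were low and 1 high, ranging between -3.27 and 3.59. Their part in the cilia result was not tested. Of 33 contractile and serum response genes 14 were low and 1 high (median -0.76). The authors' deposited table gave smooth muscle actin Acta2 -3.46, the matricellular gene Ctgf -2.94, Tagln -2.80, Cnn1 -2.73 and Myl9 -2.41.

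Matrix, growth factor and Wnt genes went in both directions. Of 42 collagens and collagen processing genes 9 were high and 10 low, beside 8.96% high and 8.24% low over all genes. The authors' deposited table set the transmembrane collagen Col23a1 at 4.40 and Col18a1, the source of endostatin, at 2.88, against Col8a2 at -5.92, and the paired basement membrane chains Col4a3 and Col4a4 at -4.34 and -3.71. In the proteinase list 12 of 32 were high and 2 low. The macrophage elastase Mmp12 was at 9.01, the gelatinase Mmp9 at 6.88 and the stromelysin Mmp3 at 5.32, while Adamts18 was at -6.18, in the authors' deposited table. Matrix glycoproteins had 10 of 53 high and 16 low. The leucine-rich proteoglycans went opposite ways, with Dcn at 5.95 and Lum at 3.72 but Omd at -4.87 in the authors' deposited table.

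Among 52 growth factor genes, 14 were high and 16 low. The authors' deposited table gave the paracrine factors Hgf 4.26 and Fgf7 3.18, against Fgf18 at -3.33 and the carrier Fgfbp1 at -5.47. Of 48 Wnt pathway genes 7 were high and 11 low. Ligands were split, with Wnt6 at 8.36, Wnt10a at 5.44 and Wnt2b at -4.08 in the authors' deposited table. The same was true of the BMPs, where Bmp2 was at 2.77 and Bmp3 at 2.58 but Bmp7 at -3.30 and Bmp6 at -2.01 in the authors' deposited table. Of 23 Notch and Hedgehog genes 1 was high and 3 low, beside 8.96% high and 8.24% low over all genes. These counts are too small to call a shift of either pathway. Among the low members were the Hedgehog effectors Gli1 and Gli2, at -2.59 and -1.56 in the authors' deposited table.

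Membrane receptors and channels were split about evenly, with 12 of 47 high and 13 low, beside 8.96% high and 8.24% low over all genes. The authors' deposited table gave the angiotensin receptor genes Agtr1b and Agtr1a 3.85 and 2.66 and the bradykinin receptor Bdkrb1 2.23. The authors' deposited table placed the natriuretic peptide clearance receptor Npr3 at -5.12 and the GABA receptor subunit Gabrb1 at -3.40. In the authors' deposited table Agtr1b was at 3.85 at 48 hr and 0.50 at 24 hr, and the macrophage receptor gene Adgre1 at 6.71 and 0.82. The times share their untreated libraries.

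Few genes marking microglia were measured. Of 23 microglia and macrophage markers 5 had a fold, of which 4 were high and none low, and 18, among them Cx3cr1, P2ry12, Aif1, Csf1r, Ptprc and Tyrobp, had none analysed here. Beside Adgre1, the authors' deposited table gave Lyz2 1.49, Tmem119 1.43 and Cd68 1.18. In mutant footprints 1 of the 5 markers was high (median 0.55), and the RD fold was below 0 in all 5. In WT mRNA 2 of the 5 were high (median 0.56). Fold tables hold no levels, so how many such cells were present, and their part in the immune lists above, was not tested. Of 12 fibroblast and mural markers 3 were high and 2 low. Of 7 oligodendrocyte lineage markers 1 was high and none low, and of 6 endothelial markers 1 was high and 1 low. Neuron markers had 2 of 5 low and none high. Over all genes 8.96% were high and 8.24% low.

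Some promoter elements were more frequent in particular lists, and none was limited to the list it is best known from. In the 250 bases upstream of RefSeq starts, searched on both strands, the NF-kB consensus was in 8.97% of 12374 promoters of 9613 genes in the table. It was in 23.2% of 228 promoters of genes with a fold at or above 3, 13.4% of 842 promoters of genes at 1 to 3 and 8.23% of those between -1 and 1. Among lower genes it was in 9.46% at -3 to -1 and in 11.2% of 80 promoters at or below -3. By list, 10 of 22 promoters of class I antigen presentation genes, 4 of 9 of interleukins and colony stimulating factors, 5 of 13 of chemokines and 12 of 36 of NF-kB regulators held it. Other lists with many high genes did not stand out, with 2 of 18 promoters of acute-phase and iron genes, 1 of 15 of TNF ligands and receptors, 1 of 21 of interleukin receptors and 0 of 12 of complement genes. Lists that were lower or mixed held the NF-kB consensus too, in 7 of 34 promoters of contractile genes and 6 of 31 of collagens. It was in 8 of 52 promoters of matrix glycoproteins, 6 of 66 of mitosis genes and 2 of 63 of cilia genes. Promoter tables are not complete, and for the chemokines 11 of 17 genes had an entry.

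The ISRE core was rarer and more concentrated. It was in 2.63% of all promoters, against 8 of 10 of the interferon-inducible GTPases and 19 of 52 of the interferon response. The 10 GTPase promoters belong to 9 of the 15 measured genes. Outside these lists the element was also in 5 of 52 promoters of matrix glycoproteins and 6 of 70 of DNA replication and repair. Cytosolic ribosomal protein genes held the ISRE core in 6 of 72, mitosis genes in 2 of 66 and cilia genes in 0 of 63. By size of fold its share was 10.5% at or above 3, 5.23% at 1 to 3 and 2.21% between -1 and 1. Among lower genes it was 2.96% at -3 to -1 and 3.75% of 80 promoters at or below -3. In the lower groups, the CHR element was in 26 of 66 promoters of mitosis genes (39.4%), against 10.3% of all promoters, and CCAAT in 44 of the same 66 against 35.3%. Neither was particular to mitosis genes: CHR was in 5 of 10 promoters of the high interferon-inducible GTPases, and CCAAT in 72.7% of those of class I antigen presentation, 71.4% of clock and 69.0% of cholesterol synthesis genes. DNA replication and repair promoters held the E2F consensus in 13 of 70, against 3.22%, and the CHR element in 8 of 70. The CArG consensus was in 6 of 34 promoters of contractile genes and 1.16% of all. It was also in 6 of 36 promoters of AP-1 and immediate early factor genes, of which 7 of 38 were high and 1 low. These are matches of letters, counted without a test, and say nothing of which factor was bound.

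**Figure D2:**
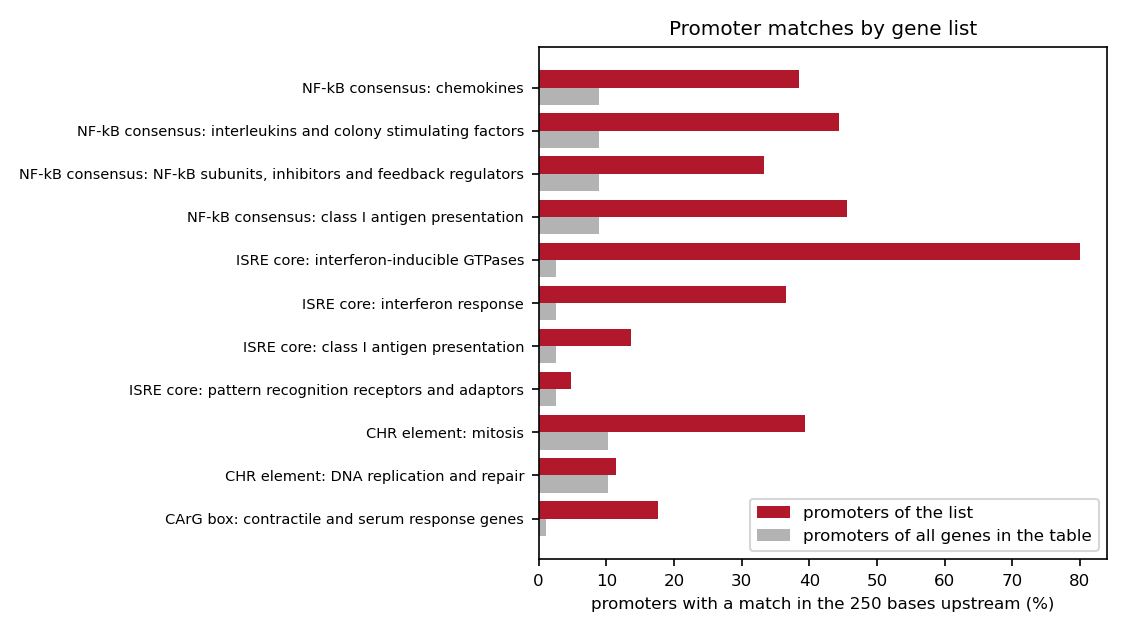
Bars give the percent of promoters with a match to the named element in the 250 bases upstream of the start, for each list (red) and for all genes of the table (grey). The ISRE core is in 80.0% of promoters of the interferon-inducible GTPases and the CHR element in 39.4% of those of mitosis genes.

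Footprints at 48 hr, made from a digested portion of the same lysates, had folds in the direction of most large mRNA folds. Of 282 genes with an mRNA fold at or above 3, 275 had a footprint fold at or above 1, and all 86 at or below -3 had one at or below -1. The 7 without were Cxcl9, Nts, Tgtp2, Bcl6b, Ccl17, Il20rb and Ppfia3, named here after their values were seen, as were the other genes outside the naming rule. For Nts, the neurotensin gene, the mRNA fold was 10.02 and the footprint fold 0.21 in the authors' deposited table, and for Cxcl9 these were 10.11 and 0.24. In the WT the authors' deposited table gave Nts a footprint fold of 6.87 and Cxcl9 one of 1.82. The RD fold of Nts was -2.69 in the mutant and -2.77 in the WT in the authors' deposited table, so for the mutant it is far from the footprint fold minus the mRNA fold, and how RD was computed is not stated. A reverse case was Cd72, with an mRNA fold of 1.00 and a footprint fold of 7.53 in the authors' deposited table. Levels are not in the table, so genes near detection in untreated cells could not be set apart.

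**Figure D3:**
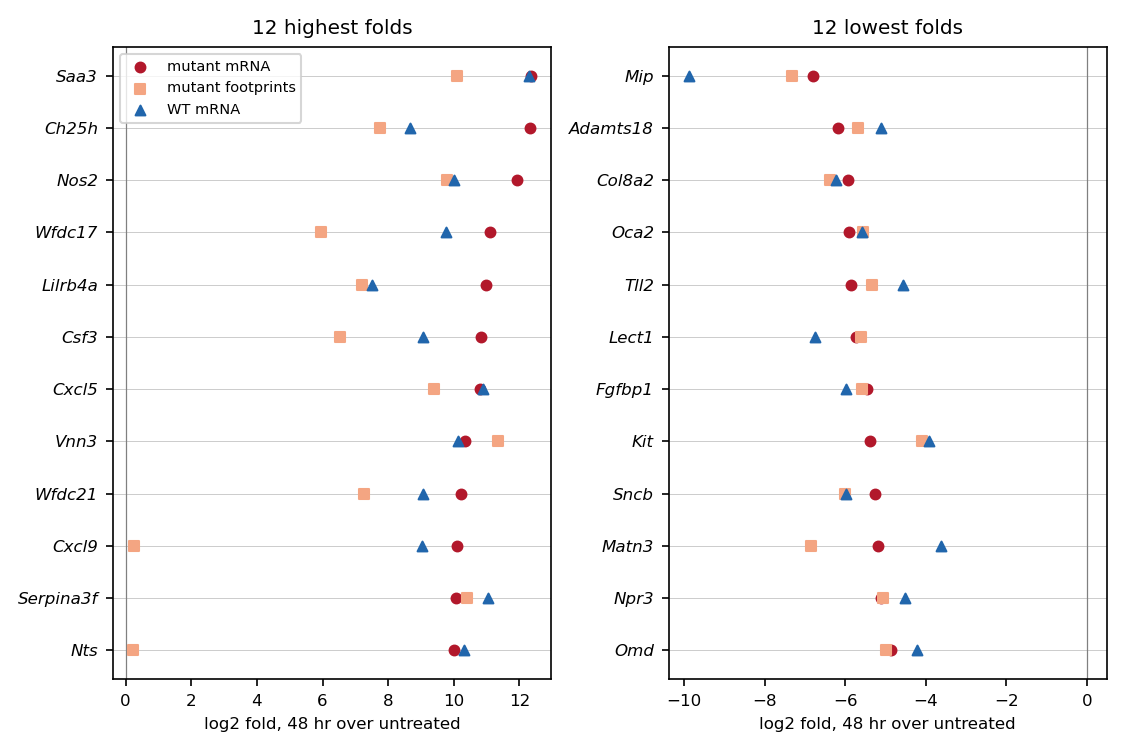
The 12 named genes with the highest (left) and the 12 with the lowest (right) mutant mRNA folds at 48 hr, predicted names left out, with the mutant mRNA fold (circles), the mutant footprint fold (squares) and the authors' WT mRNA fold (triangles), all on the log2 scale of treated over untreated. Footprint folds of Cxcl9 and Nts sit near 0, and the low genes have low values in all 3 measures.

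The lowest folds belonged to genes of varied function. Mip, the lens aquaporin, was lowest at -6.81 in the authors' deposited table, against -9.89 in the WT. It was followed in the authors' deposited table by Adamts18, Col8a2 and the melanosomal transporter gene Oca2 at -5.90. Next in the authors' deposited table were the tolloid-like protease gene Tll2 at -5.84 and the chondromodulin gene Lect1 at -5.73. The stem cell factor receptor Kit was at -5.40, Sncb, a synuclein, at -5.25, and the cartilage matrix gene Matn3 at -5.18 in the authors' deposited table. Lect1 was at -5.73 at 48 hr and -1.98 at 24 hr, and Omd at -4.87 and -2.61, in the authors' deposited table.

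The strongest responses of the mutant were shared by the authors' WT comparison. Of the 282 mutant genes at or above 3, 281 were at or above 1 in the WT. Conversely all 265 WT genes at or above 3 were at or above 1 in the mutant. All 86 mutant genes at or below -3 were at or below -1 in the WT, and 104 of 107 the other way. The exception on the high side was Tmem132e, at 5.11 in the mutant and 0.56 in the WT in the authors' deposited table, whose WT footprint fold was 7.08. Across 12204 genes the Pearson correlation of the mutant and WT folds was 0.89 and the Spearman correlation 0.63, a description over genes that are not independent.

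Single genes of the strong response differed in the size of their mRNA fold. The largest mutant-minus-WT difference was that of Pik3ap1, an adaptor of PI3K signalling, with 8.99 in the mutant and 3.37 in the WT in the authors' deposited table. Ch25h was at 12.32 and 8.65, the fatty acid receptor Gpr84 at 7.66 and 3.86, and Mmp12 at 9.01 and 5.55, mutant and then WT, in the authors' deposited table. On the other side the authors' deposited table gave the vitamin D catabolic enzyme Cyp24a1 4.48 in the mutant and 8.36 in the WT, Acod1 9.08 and 11.78, and Saa2 8.00 and 10.61. Corrected for GC content as below, these differences were 5.54 for Pik3ap1, 3.72 for Ch25h, -3.79 for Cyp24a1 and -2.56 for Acod1, close to the deposited ones. All of these genes also had a high fold in the WT. Footprint folds, mutant and then WT, were 5.81 and 4.79 for Pik3ap1 and 7.75 and 7.48 for Ch25h in the authors' deposited table. For Gpr84 they were 6.63 and 5.03, for Mmp12 5.95 and 2.21, and for Cyp24a1 5.66 and 6.24. For Saa2 they were 7.90 and 8.01, and for Acod1 9.95 and 8.00, the reverse of its mRNA order.

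Across moderate folds the 2 genotypes differed in a way that tracked base composition. A total of 901 genes had a mutant-minus-WT difference at or above 1 (7.38%), against 86 at or below -1 (0.705%). Of the 894 with a GC value, 746 (83.4%) were in the 2 of 10 equal bins with the highest transcript GC content. In the mutant the median mRNA fold was -0.17 in the lowest GC bin and 0.38 in the highest. In the WT it was 0.20 in the lowest and -0.55 in the highest, the opposite slope. Footprint medians stayed between -0.02 and 0.03 over the bins in the mutant and between -0.04 and 0.06 in the WT. RD medians in the mutant were 0.24 in the lowest bin and -0.34 in the highest, against -0.33 and 0.56 in the WT. At 24 hr the mutant mRNA medians were -0.03 and 0.10 in those bins, against 0.15 and -0.42 in the WT.

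**Figure D4:**
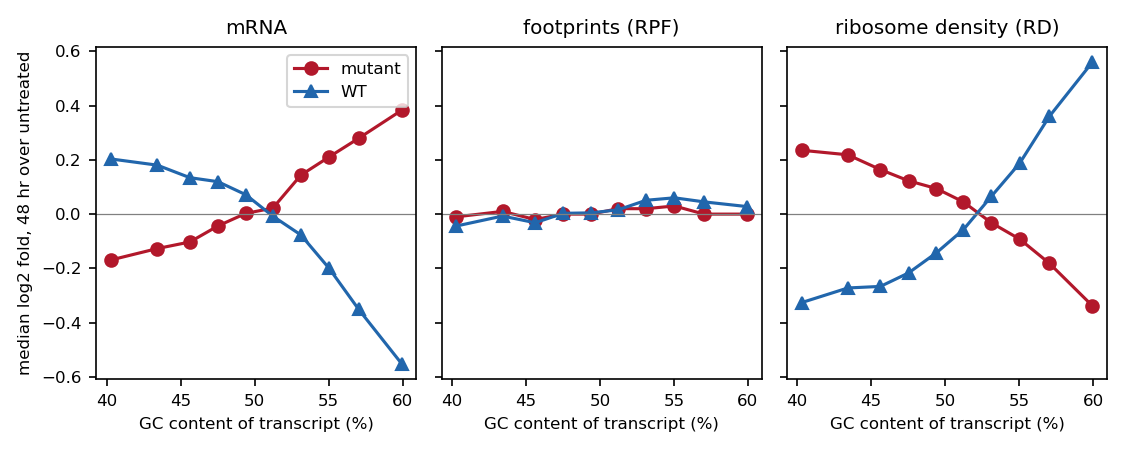
Median log2 fold at 48 hr in 10 bins of transcript GC content with equal numbers of genes, for mRNA, footprints and ribosome density, in the mutant (red circles) and the authors' WT comparison (blue triangles). The mRNA lines cross with opposite slopes, the footprint lines are flat within 0.06 of 0, and the density lines mirror the mRNA lines.

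Subtracting the median of each of 20 GC bins left 139 genes at least 2-fold higher in mutant minus WT and 123 at least 2-fold lower. The same step gave a Pearson correlation between the genotypes of 0.95 and a Spearman correlation of 0.84 across 11987 genes. Of the 946 mutant genes then at or above 1, 88.3% were shared with the WT, which is 84.2% of the 992 in the WT; as deposited the shares were 74.3% of 1093 and 82.0% of 990. Transcript length had a weaker relation, with mutant medians of 0.18 in the shortest of 10 bins and -0.17 in the longest, against -0.05 and -0.02 in the WT. After length correction 708 differences reached 1 and 94 reached -1. WT and mutant libraries, their batches and genotype cannot be told apart here, and what sets the GC slopes was not tested.

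**Figure D5:**
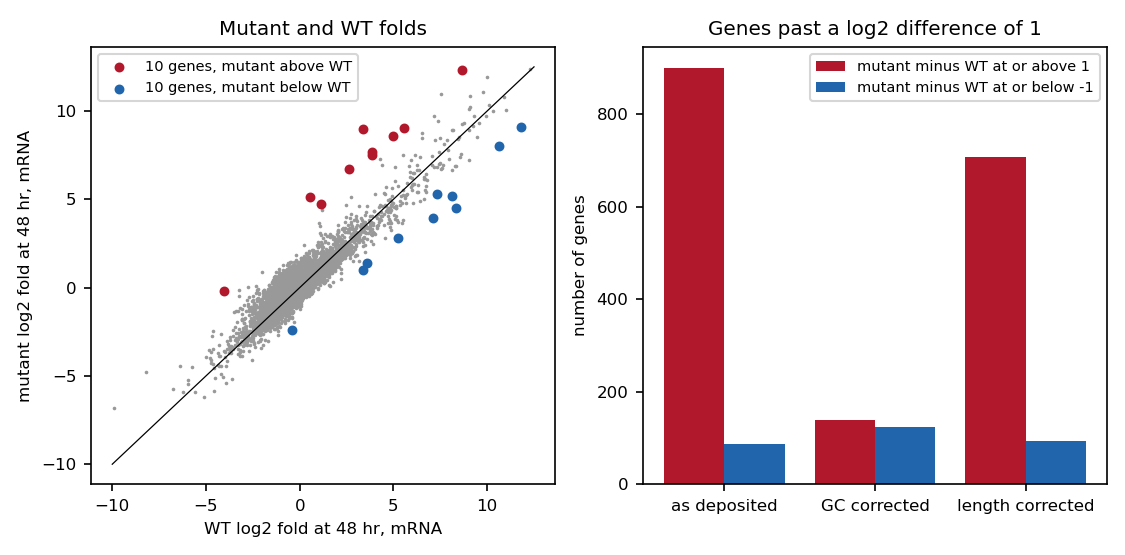
Left, the mutant mRNA fold at 48 hr against the authors' WT fold for every gene, with the 10 genes highest and the 10 lowest in mutant minus WT coloured and the line of equality drawn. Right, the number of genes with a mutant-minus-WT difference at or above 1 (red) and at or below -1 (blue), as deposited (901 and 86), after GC correction (139 and 123) and after length correction (708 and 94).

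All 81 measured cytosolic ribosomal protein genes had a mutant mRNA fold above 0. Of these 17 were at or above 1, and the median was 0.71, against 0.29 in the WT. Their footprint medians were 0.35 in the mutant and 0.38 in the WT, with 0 mutant footprint folds at or above 1. The RD median was -0.27 in the mutant and 0.10 in the WT. GC-corrected, the mutant mRNA median was 0.62, 8 genes were high, and 55 of 81 mutant-minus-WT differences were above 0 (median 0.24). The authors' deposited table gave the acidic stalk proteins Rplp2 and Rplp1 1.42 and 1.37 in the mutant, against -0.65 and -0.55 in the WT. The authors split these genes by WT values of these data, so their subsets are not independent evidence. In the 54 called translationally regulated the mutant median was 0.79 against 0.08 in the WT, and 0.69 against 0.19 after GC correction. In the 23 called regulated by mRNA abundance it was 0.54 against 0.64, and the order turned to 0.60 against 0.54 after GC correction. The signed p-values for 48 hr mRNA in the authors' deposited table were 9e-22 and 2e-08 for these subsets in the mutant, against 0.04 and 8e-10 in the WT, with no test named.

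Respiratory genes sat near 0 in the mutant. Of 76 nuclear oxidative phosphorylation genes none was at or beyond 1, and the median was 0.14 in the mutant and -0.17 in the WT. After GC correction the mutant median was -0.0026, and the median mutant-minus-WT difference was 0.12, against 0.24 as deposited. Uqcrq, a complex III subunit, was at 0.88 in the mutant and -1.10 in the WT in the authors' deposited table. The 9 mitochondrially encoded genes, which are poor in GC, had a median of 0.12 in the mutant and 0.64 in the WT. After GC correction these were 0.31 and 0.46, and the median difference was -0.15, against -0.52 as deposited. The 18 circadian clock genes had no member at or beyond 1, with a median of -0.30.

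Folds of the eIF2B genes were near 0. The ATF4 targets of amino acid supply, part of what the eIF2 stress response controls, were high or low about as often as other genes. The authors' deposited table gave Eif2b5, the mutated gene, 0.24, and Eif2b1, Eif2b2, Eif2b3 and Eif2b4 0.26, 0.26, -0.06 and 0.10. Of 36 ATF4 targets of amino acid supply 4 were high and 4 low, 11.1% each, beside 8.96% high and 8.24% low over all genes. Their median was 0.15 in the mutant and -0.20 in the WT. After GC correction it was 0.02 in the mutant and 0.03 in the WT, and the median mutant-minus-WT difference turned to -0.16, against 0.25 as deposited. Beside Slc7a11, Nupr1 was at 2.06, while the leucine transporter Slc7a5 was at -1.99, the serine synthesis gene Psat1 at -1.36 and Cth at -1.25, in the authors' deposited table. Of 28 eIF2alpha kinases, phosphatases and stress factors 3 were high and none low (median 0.17). The 39 aminoacyl-tRNA synthetases had no member at or beyond 1 (median 0.25). Of 47 initiation and elongation factors 1 was high and 1 low (median 0.34), below the shares over all genes. They were Eif6, which keeps the ribosomal subunits apart, at 1.25 and Eef2k, a brake on elongation, at -1.46 in the authors' deposited table.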

How the data were processed

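Values in the authors' deposited main table are, per the file headers, log2 folds against untreated cells in mRNA, RPF and RD, for both times and genotypes. The authors' deposited p-values for their own gene lists are signed scores with no test named. Per the submitters' processing notes TopHat2, featureCounts and mm10 were used, with no versions. The normalization behind the folds and RD was not stated in the labels or headers. Replicates were pooled by the authors, so no test was run, and depth per library is unknown.

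From these folds, genes were counted past a 2-fold change in each direction, 61 gene lists were summarised by counts and medians, and the WT fold was subtracted from the mutant fold. The members and lists were chosen with earlier results of these data known. The naming rule took the 20 highest and 20 lowest 48 hr folds, up to 6 members per list with the largest fold, members against their list's median by 1 or more, the 10 largest mutant-WT differences in each direction, eIF2B subunits and a short marker set. Some genes the rule takes are not reported here. Damaged symbols of 31 genes were restored through their identifiers. Transcript GC content and length came from GENCODE M21 on GRCm38 for 11988 genes, using the coding transcript with the longest coding sequence. Corrected folds have the median of each of 20 equal bins subtracted. The correction was tested on simulated data. Alternatives were other thresholds (1.5-fold and 4-fold), median centring, GC and length correction, leaving out predicted names, and RPF minus mRNA in place of RD. Tables were handled and correlations computed in pandas 2.3.3 with numpy 2.4.6 under Python 3.11.15, and figures came from matplotlib 3.10.9.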

Additional observations from a re-analysis of the deposited data

How the results depend on the processing

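No paired analysis was possible because the table holds 1 pooled fold per comparison and no value per library, so leaving out replicates was not run either. A threshold of 1.5-fold gave 2058 genes high and 1845 low in mutant mRNA at 48 hr, and 2157 and 455 in mutant minus WT. At 4-fold these were 480 and 278, and 47 and 10. Median centring, GC correction, length correction and leaving out predicted names gave between 946 and 1046 high and between 969 and 1053 low genes in mutant mRNA. For mutant minus WT, GC correction left 139 genes at or above 1, against 784 with centring and 708 with length correction, and 123, 111 and 94 at or below -1. Under GC correction the medians of 3 of 59 lists changed sign, and under length correction 3, none with a median beyond 0.142 as deposited. RPF minus mRNA in place of RD gave 62 genes high and 165 low, against 93 and 151. Replicate error and depth are not known, so small folds cannot be separated from 0.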
